A study of Mus musculus with 9 samples.

Results

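The cyclooxygenase genes Ptgs1 (ENSMUSG00000047250) and Ptgs2 (ENSMUSG00000032487) were followed in the mouse macrophage-like line RAW264.7 after transfection with mimics of the microRNA let-7c-5p (5 libraries) or in a negative control (4 libraries). These 2 genes were taken out of a deposited table of 311 genes by name. They had been chosen by their read counts in these same libraries, where Ptgs1 was higher and Ptgs2 lower after let-7c-5p, so that difference is described below and not tested. The labels call the libraries biological replicates of 1 cell line and set out to ask how let-7c-5p alters macrophage polarization. They do not say what the control cells received, and the dose of mimic, the time after transfection and any inflammatory stimulus are not stated there.

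Cyclooxygenases carry out the committed step of prostanoid synthesis: they turn arachidonic acid into the unstable intermediate from which terminal synthases make prostaglandins and thromboxane. Ptgs1 encodes COX-1, which most tissues make constitutively. Ptgs2 encodes COX-2, which macrophages induce within hours of an inflammatory signal and whose short-lived mRNA carries AU-rich elements in its 3′ untranslated region (UTR). Both enzymes are blocked by aspirin and related drugs.

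A microRNA pairs with its target mRNA mainly through its seed, bases 2 to 8. The mature let-7c-5p sequence is shown because it is the molecule that was added; it comes from RefSeq (GRCm38.p6), where it is encoded by Mirlet7c-1 (chr16:77599672-77599693, plus strand) and Mirlet7c-2 (chr15:85706616-85706637, plus strand), and the seed is in capitals.
let-7c-5p: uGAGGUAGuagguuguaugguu

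The annotated 3′ UTRs of the members (GENCODE M21, GRCm38) were searched on the sense strand for letters that pair with this seed. The sources used here do not give the build of the counting, so positions describe the annotation only. Ptgs2 (chromosome 1, 150100031 to 150108227, plus strand) has a 4453-base main transcript of 10 exons with a 3′ UTR of 2445 bases. Ptgs1 (chromosome 2, 36230426 to 36252272, plus strand) has a 2867-base main transcript of 11 exons with a 3′ UTR of 921 bases. Main transcript here means the protein-coding transcript with the longest annotated 3′ UTR. Neither 3′ UTR holds CTACCTC, the 7-base match to bases 2 to 8, or TACCTCA, the 6-base match to bases 2 to 7 followed by A. The 6-base match alone, TACCTC, occurs at 2 places in the Ptgs2 3′ UTR and at 0 in that of Ptgs1. Of 1285 mouse genes whose 3′ UTR is within 10% of the length of that of Ptgs2, 40.7% hold it at least once and 10.3% hold it at 2 or more places. Of 1319 genes matched in the same way to Ptgs1, 17.7% hold it.

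The 30-base stretches around both Ptgs2 matches are shown so that the flanking bases can be seen; each lies in the 3′ UTR within the last exon, on the plus strand of GRCm38, with the match in capitals. The stretch at chr1:150107132-150107161 holds the match that starts 1362 bases after the stop codon, and the stretch at chr1:150107518-150107547 the match at base 1748.
Ptgs2 site 1: aggactactatgTACCTCccctttggaggg
Ptgs2 site 2: cttttttatgatTACCTCtctgaactatgg

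The 3′ UTRs also differ in AU-rich sequence. The pentamer ATTTA, the core of AU-rich elements to which RNA-binding proteins such as tristetraprolin and HuR attach, occurs at 14 places (overlaps counted) in the Ptgs2 3′ UTR and at 0 in that of Ptgs1. Of the 3′ UTRs of like length to Ptgs2, 1.48% have as many. The pentamers of Ptgs2 are crowded: 7 of them start within the first 100 bases, in a stretch of 46 bases that begins 16 bases after the stop codon. Among 19934 genes with a 3′ UTR of at least 100 bases, 10.6% have any ATTTA in that window, and Ptgs2 is the only 1 with as many as 7. The start of the cluster is shown, with ATTTA in capitals; it lies at chr1:150105797-150105826, plus strand, GRCm38.
Ptgs2 AU-rich stretch: tATTTATTTATTTAtgtgaagaATTTAatt

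**Figure D1:**
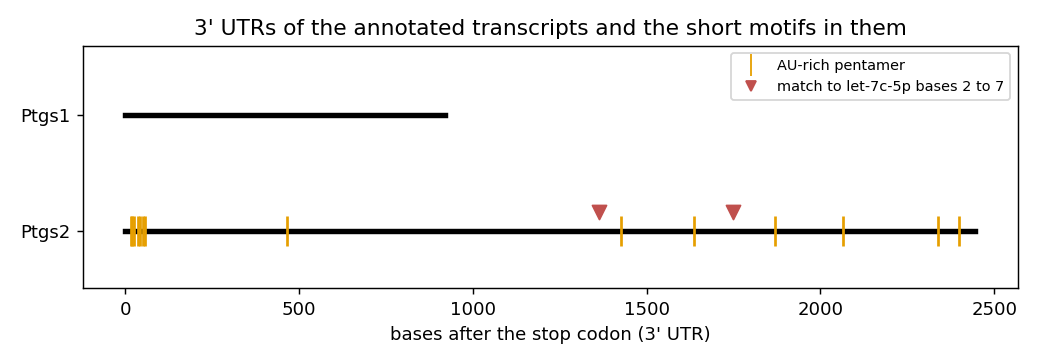
Annotated 3′ UTRs of Ptgs1 (921 bases) and Ptgs2 (2445 bases), drawn as bars along the distance in bases after the stop codon, with ticks for the AU-rich pentamer and triangles for the 6-base match to let-7c-5p. Ptgs2 carries 14 pentamers, 7 of them in the first 100 bases, and 2 matches, while Ptgs1 carries neither.

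The regions around the annotated starts also differed in sequence. In the RefSeq windows of 250 bases before to 50 after the annotated start (GRCm38.p6), both strands were searched. Ptgs2 holds TGACG, the core of the cyclic AMP response element (in 20.8% of 32851 mouse windows), and CACGTG, an E-box (in 7.15%). They share 2 bases in the run CGTCACGTG, which begins 13 bases after the annotated start. Ptgs2 also holds GGGCGG, a GC box (35.7% of windows), and Ptgs1 holds none of these. Neither window holds TATAAA (13.6%) or CCAAT (37.4%), and sequence outside the windows was not searched. The run is shown in capitals at chr1:150100034-150100063, plus strand, because cyclic AMP and E-box factors are known regulators of Ptgs2 in mouse macrophages; these counts do not bear on their binding.
Ptgs2 start region: gtcaccactaCGTCACGTGgagtccgcttt

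The counts were read as follows. The deposited values are whole-number read counts that had not been normalized, and table totals were 43241 to 83053 in the let-7c-5p libraries and 40655 to 50083 in the control libraries. No gene of the table had a log2 ratio of group means between -0.98 and 0.98, so the genes had been selected for a difference between these groups. The totals are therefore no sequencing depths, and depth is unknown. Gm10123, Gm6061 and Rpl17 made up 48.0% to 71.9% of the let-7c-5p totals and 29.3% to 35.7% of the control totals, so any scaled value depends on how these are treated. As no gene of the table lay near a log2 ratio of 0, a scaling also had no unchanged genes to rest on. The 0 of a scaled fold change thus depends on the mix of selected higher and lower genes. For these reasons the unscaled counts and the ratio of the members within a library are given before any scaled value.

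Ptgs1, the constitutive form, was higher in every let-7c-5p library than in any control library. It had 1525, 1570, 1412, 2021 and 957 counts in let-7c-5p replicates 1 to 5, against 596, 625, 626 and 706 counts in control replicates 1 to 4. The groups did not overlap: the lowest let-7c-5p library, replicate 5, lay above the highest control library, replicate 4. The same was true of 63.8% of the 149 genes tested, so nothing is read from it. In bulk RNA, a change in the number of cells that express a gene and a change in its RNA per cell cannot be told apart. The mean was 1497 ± 381 counts with let-7c-5p (SD, n = 5) and 638 ± 47.3 counts in the control (SD, n = 4). In unscaled counts its coefficient of variation was 25.4% with let-7c-5p and 7.40% in the control; after scaling by the trimmed mean of M-values (TMM) it was 15.0% with let-7c-5p and 15.9% in the control.

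Ptgs2, the inducible form, was lower in every let-7c-5p library than in any control library. It had 255, 222, 219, 409 and 249 counts in let-7c-5p replicates 1 to 5, against 698, 1040, 1018 and 1274 counts in control replicates 1 to 4. Again the groups did not overlap, as in 63.8% of the 149 genes tested, so nothing is read from it. The highest let-7c-5p library, replicate 4, stood well apart from the other let-7c-5p libraries. Ptgs2 had a mean of 271 ± 78.9 counts with let-7c-5p (SD, n = 5) and 1008 ± 237 counts in the control (SD, n = 4). Its coefficient of variation was 29.1% with let-7c-5p and 23.5% in the control in unscaled counts, and 21.4% with let-7c-5p and 10.1% in the control after TMM scaling. In the unscaled counts, control replicate 1 was the lowest of its group.

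**Figure D2:**
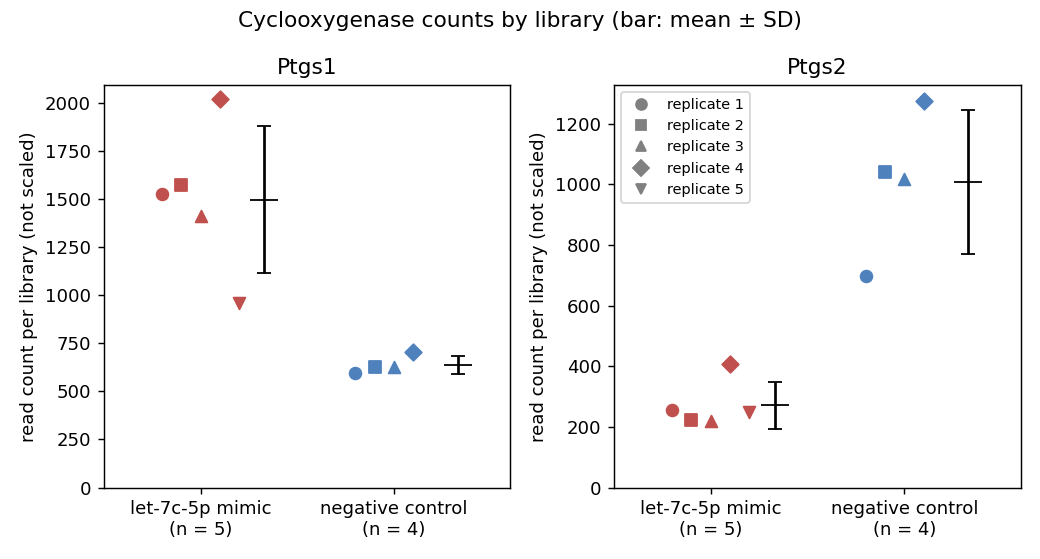
Unscaled read counts of Ptgs1 and Ptgs2, 1 point per library with its replicate number as the marker shape, and the mean ± SD beside each group (5 let-7c-5p mimic and 4 negative control libraries). Ptgs1 runs from 957 to 2021 with let-7c-5p and from 596 to 706 in the control; Ptgs2 runs from 219 to 409 with let-7c-5p and from 698 to 1274 in the control.

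The ratio of Ptgs2 to Ptgs1 within a library needs no scaling. It was 0.167, 0.141, 0.155, 0.202 and 0.260 in let-7c-5p replicates 1 to 5, against 1.17, 1.66, 1.63 and 1.80 in control replicates 1 to 4. Every let-7c-5p library had fewer Ptgs2 than Ptgs1 reads, and every control library had more. The highest let-7c-5p ratio (replicate 5) and the lowest control ratio (replicate 1) were still 4.50-fold apart.

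On the log2 scale the ratio averaged -2.47 ± 0.35 with let-7c-5p (SD, n = 5) and 0.63 ± 0.27 in the control (SD, n = 4). The difference, let-7c-5p minus control, was -3.10 ± 0.21 (SE), an 8.55-fold lower ratio. As the ratio is built from the counts that chose the members, no p-value is given. The SD between replicates was 0.35 and 0.27, against a mean counting error of 0.10 and 0.07 (let-7c-5p and control).

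Written as a share, Ptgs2 was 15.5% ± 3.30 of the reads of both cyclooxygenases with let-7c-5p (SD, n = 5) and 60.7% ± 4.60 in the control (SD, n = 4). The lowest single let-7c-5p share was 12.4% (95% Wilson interval 10.9% to 14.0%, replicate 2) and the highest 20.6% (18.5% to 23.0%, replicate 5). In the control the lowest was 53.9% (51.2% to 56.6%, replicate 1) and the highest 64.3% (62.2% to 66.4%, replicate 4). These intervals cover counting error only.

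**Figure D3:**
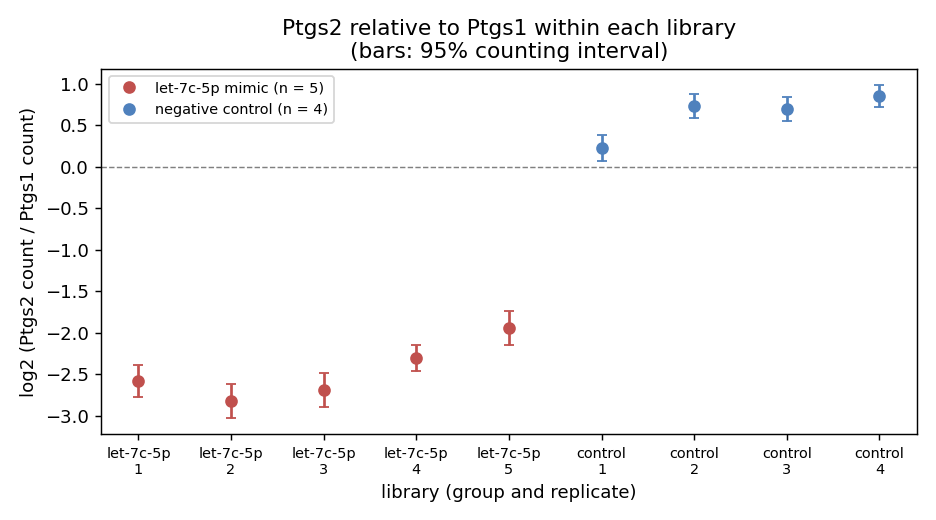
Log2 of the Ptgs2 count over the Ptgs1 count in each library, with bars for the 95% counting interval (the Wilson interval of the share, converted) and a dashed line where the counts are equal. The 5 let-7c-5p libraries lie at -2.82 to -1.94 and the 4 control libraries at 0.23 to 0.85.

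The sum of the cyclooxygenases did not separate the groups. Ptgs1 and Ptgs2 together had 1780, 1792, 1631, 2430 and 1206 counts in let-7c-5p replicates 1 to 5, against 1294, 1665, 1644 and 1980 counts in control replicates 1 to 4. These ranges overlapped, and the means, 1768 ± 440 with let-7c-5p (SD, n = 5) and 1646 ± 280 in the control (SD, n = 4), differed by less than the spread of either group. This comparison is of unscaled counts and would move with any scaling.

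Levels of the genes can be set beside each other only per length. Per kilobase of the main annotated transcript, Ptgs1 had 522 ± 133 counts and Ptgs2 60.8 ± 17.7 counts with let-7c-5p (SD, n = 5). In the control, Ptgs1 had 223 ± 16.5 counts and Ptgs2 226 ± 53.1 counts per kilobase (SD, n = 4). The ratio of Ptgs2 to Ptgs1 per kilobase was thus 0.119 ± 0.0307 with let-7c-5p and 1.01 ± 0.177 in the control. These values use the length of a single annotated transcript per gene, of 5 for Ptgs1 and 2 for Ptgs2. Which transcripts the cells made was not measured, so equal levels in the control are not shown.

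Whether the libraries within a group spread in the same way in the 2 genes depended on the scaling. Let-7c-5p replicate 4 had the highest count of both Ptgs1 and Ptgs2, and its ratio, 0.202, was second highest in its group. Let-7c-5p replicate 5 had the lowest Ptgs1 count, 957, with a middling Ptgs2 count, 249, which gave it the highest ratio. Control replicate 1 had the lowest count of both genes in its group, and control replicate 4 the highest. After TMM scaling and removal of the group means, the deviations of Ptgs1 and Ptgs2 over the 9 libraries had a Pearson correlation of 0.07. With unscaled log2 counts, where library size is shared by the genes, Spearman's rho was 0.68. These are descriptions over few libraries, and they depend on the scaling.

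In the edgeR quasi-likelihood fit over the whole table, Ptgs1 had a log2 fold change of 1.12 ± 0.20 (SE) and Ptgs2 of -1.95 ± 0.20 (SE), let-7c-5p over control. Both members passed the filter on low counts, which left 149 of the 311 genes. Of these, 99.3% were called at an adjusted p under 0.05 (51.0% higher and 48.3% lower). Nothing is read from the members being among them. In TMM-scaled CPM, which are relative to the tested genes of the table, Ptgs1 had 21335 to 32345 with let-7c-5p and 10121 to 14833 in the control. Ptgs2 had 4062 to 6546 CPM with let-7c-5p and 17371 to 21877 CPM in the control, so the groups did not overlap in either gene after scaling. The same was true of 71.1% of the tested genes, so nothing is read from it.

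By size, Ptgs2 stood far out among the lower genes and Ptgs1 in the middle of the higher ones. The median log2 fold change was -1.20 over the 72 lower genes and 1.09 over the 77 higher ones. Ptgs2 ranked 8 from the lowest of the 149, between Lcn2 (-1.96 ± 0.30, SE), an iron-siderophore binding protein, and Gm47260 (-1.76 ± 0.36). Ptgs1 ranked 34 from the highest, between the glutamate receptor subunit gene Grin1 (1.13 ± 0.27) and the von Willebrand factor gene Vwf (1.11 ± 0.29). Ptgs1 and Ptgs2 were also among the more abundant genes, at ranks 8 and 12 of 149 by mean count.

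**Figure D4:**
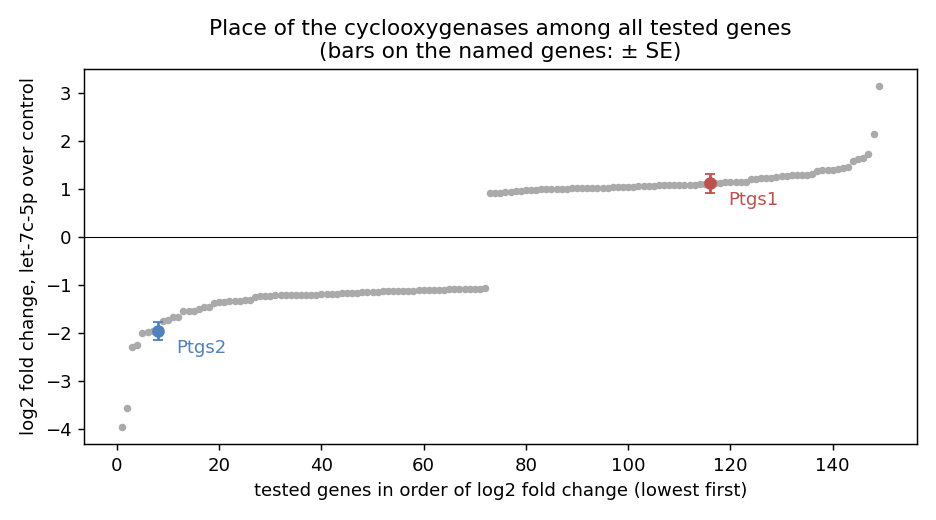
Log2 fold change (let-7c-5p over control, edgeR with TMM) of the 149 tested genes in order from the lowest, with Ptgs1 and Ptgs2 marked and bars of ± SE on them. The gap around 0 shows the selection of the table; Ptgs2, at -1.95, lies near the low end and Ptgs1, at 1.12, among the middle of the higher genes.

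The opposite directions held under every scaling tried, while the sizes shifted. Column totals shifted the log2 fold changes of the tested genes by a median of -0.35 and gave 0.85 for Ptgs1 and -2.31 for Ptgs2. Column totals without Gm10123, Gm6061 and Rpl17 shifted them by a median of 0.42 and gave 1.57 for Ptgs1 and -1.54 for Ptgs2. Relative to those shifts the members stayed near the TMM values. The gap between them, Ptgs2 minus Ptgs1, was -3.08 with TMM. It was -3.01 to -3.23 over all other settings, those without 1 library included. A factor per library largely cancels in this gap, so its steadiness under other scalings was built in.

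**Figure D5:**
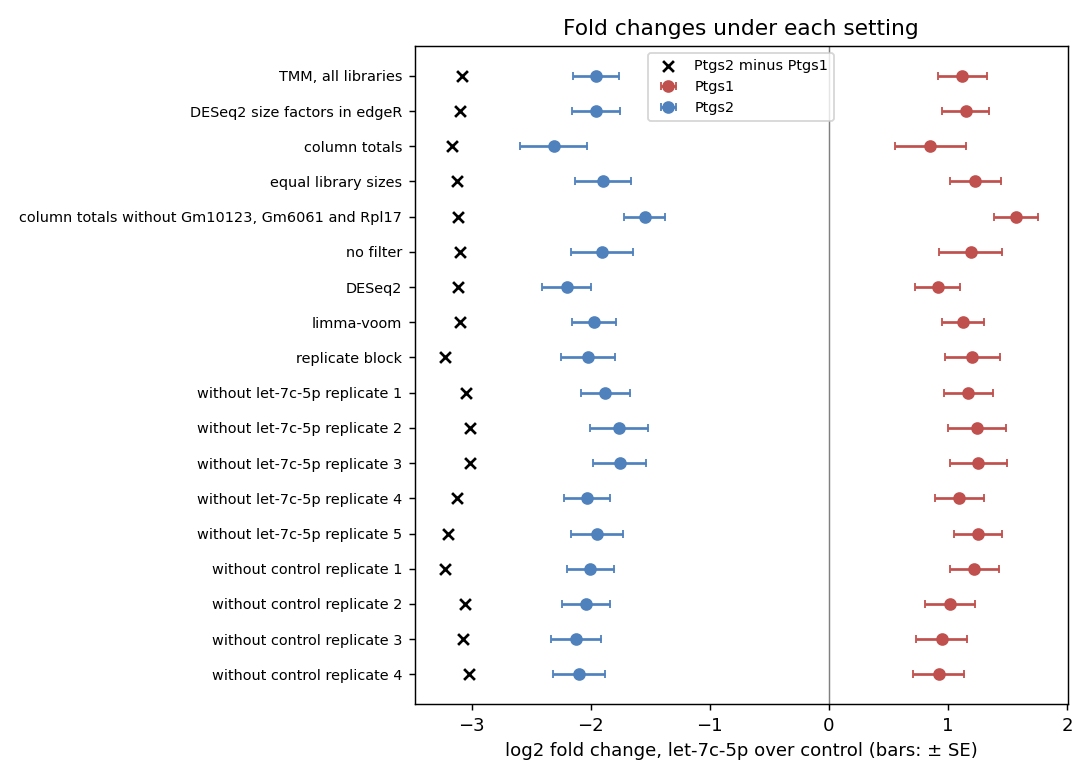
Log2 fold changes (let-7c-5p over control) of Ptgs1 and Ptgs2 with bars of ± SE, and their difference as crosses, under each setting; the settings run down the page. Ptgs1 lies to the right of 0 and Ptgs2 to the left of 0 in each setting, and the crosses stay between -3.23 and -3.01.

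The rest of the prostanoid pathway could hardly be followed in the selected table. Of 102 other genes listed around the cyclooxygenases, 1 was present. Of 21037 mouse protein-coding genes with an annotated 3′ UTR, 186 were in the table. That is a similarly small part, so nothing is read from the count of listed genes. None of the 23 genes of arachidonic acid release and re-esterification, the 14 terminal synthases and reductases, the 6 genes of prostaglandin transport and inactivation, the 9 prostanoid receptors or the 17 genes of the lipoxygenase and leukotriene pathway was in it, and they were not analysed here. The same held for the 4 listed regulators of Ptgs1.

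The gene present was Egr1 (ENSMUSG00000038418), an immediate early transcription factor, which stood among 27 listed regulators of Ptgs2 transcription and mRNA stability. Egr1 had 782, 759, 819, 775 and 1048 counts in let-7c-5p replicates 1 to 5, against 1316, 1670, 1932 and 2166 counts in control replicates 1 to 4. The groups did not overlap, as in 63.8% of the 149 genes tested, so nothing is read from it. Let-7c-5p replicate 5 was the highest of its group. Egr1 fell by 1.10 on the log2 scale (SE 0.22, edgeR quasi-likelihood fit). It was called, as were 99.3% of the tested genes. These genes had been selected for a difference between these libraries, so no p-value is given. The 1 listed regulator that was tested thus fell, as did 48.3% of all tested genes.

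The genes whose replicate-to-replicate pattern was most like that of the members were sought among the 47 other tested genes whose mean reached 50 counts, after the group means were removed. The gene most like Ptgs1 was Nfkbiz, an inducible regulator of NF-kappaB, with a Pearson correlation of 0.91 over the 9 libraries. Car6, Il23a, Azin2 and Lcn2 followed at 0.85 to 0.80. Between the groups, Nfkbiz (log2 fold change -2.24), Car6 (-1.21), Il23a (-1.97) and Lcn2 (-1.96) were lower with let-7c-5p, opposite to Ptgs1. Azin2 (2.15) was higher, as Ptgs1 was. The gene most like Ptgs2 was Dusp8, a phosphatase of MAP kinases, at 0.96, followed by Rpl17 at 0.74, Lcn2 at 0.57, Cxcl2 at 0.51 and Azin2 at 0.49. Of these, Dusp8 (log2 fold change -1.21), Lcn2 and Cxcl2 (-3.96) were lower with let-7c-5p, as Ptgs2 was. Rpl17 (1.09) and Azin2 were higher, opposite to Ptgs2. On unscaled counts with Spearman's rho, 1 of the 5 genes most like Ptgs1 kept its place among the 5, Nfkbiz at 0.97, and so did 2 of those most like Ptgs2, Dusp8 at 0.73 and Cxcl2 at 0.75. Scaled values of 1 table share their size factors, so these likenesses describe the libraries.

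Base composition moved with direction across the table. In the longest annotated transcript, GC content had a median of 55.2% over 74 higher genes (quartiles 51.7% and 57.8%). Over 70 lower genes the median was 42.5% (quartiles 39.2% and 49.9%). Ptgs2, at 40.0%, lay between the quartiles of the lower genes. Ptgs1, at 51.0%, lay just below the lower quartile of the higher genes. The part of base composition in the difference was not tested.

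Other transcripts could share reads with Ptgs1 but none was found for Ptgs2. Gm43621, which the annotation lists as still to be verified by experiment, lies on the opposite strand within Ptgs1. It shares 150 bases with the 2867-base main transcript of Ptgs1. Without the strand setting of the counting, reads of Gm43621 and Ptgs1 within that shared stretch cannot be told apart. Beyond that overlap, 0 annotated transcripts were at least 95% identical over at least 100 bases to that of Ptgs1, and 0 to that of Ptgs2. The main transcripts of Ptgs1 and Ptgs2 had no alignment with each other in this search. It starts from long exact matches, so it can miss related sequence of lower identity. On the opposite strand, Ptgs2os lies 68 bases from Ptgs2, and Ptgs2os2, known as lincRNA-Cox2, lies 50816 bases from Ptgs2. Neither was in the table.

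The labelled cell type could not be checked, since 0 of 12 listed macrophage markers were in the table. Of the 26 markers of other cell types, 2 were present. Itgax, a dendritic cell marker that macrophages also express, had 24 to 36 counts with let-7c-5p and 9 to 18 in the control. Vwf, an endothelial marker, had 19 to 41 counts with let-7c-5p and 12 to 17 in the control. The defining markers Flt3 and Cdh5 were not in the table and were not analysed here. Itgax and Vwf were higher together with Ptgs1 (log2 fold change 1.16 ± 0.27 for Itgax and 1.11 ± 0.29 for Vwf, SE). They were no longer called with column totals (0.80 and 0.82), and their part in the result was not tested.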

How the data were processed

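RNA of RAW264.7 cells was sequenced as 150-base read pairs, per the labels' protocols. The authors deposited whole-number read counts per gene, 1 column per library; the file headers name them counts. The submitters' processing notes list FastQC 0.11.9, HISAT2 2.1.0, HTSeq 0.11.2, R 4.3.2 and DESeq2 1.4.2. The build, annotation, strand setting and rule of gene selection are not stated in those notes, and depth is unknown.

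The members and gene lists were chosen with earlier results of these data known. Counts were fitted with edgeR 4.0.16 in R 4.3.3: filterByExpr (minimum count 10), TMM, and a two-sided quasi-likelihood test of group, without covariates, over all 9 libraries, with Benjamini-Hochberg adjustment over the 149 genes tested. SEs are the absolute log2 fold change over the square root of F. The fit was tested on simulated data: 10 runs with a mean of 166.9 genes tested recovered 73.0% of 2-fold and 99.9% of 4-fold changes and called 4.85% of unchanged genes. Those runs did not include the selection of genes. No replicate pair was indistinguishable (chi-square per degree of freedom 3.29 to 121).

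Likeness used log2 TMM-scaled CPM (prior count 2). Genes named were the members, list genes in the table, the 5 genes most like each member and the neighbours in order of fold change; Gm10123, Gm6061 and Rpl17 were named for their share of the counts, Gm43621, Ptgs2os and Ptgs2os2 for their position, and Flt3 and Cdh5 as defining markers. Sequences came from RefSeq tables (GRCm38.p6) and GENCODE M21; shared sequence was searched with blastn 2.17.0. Alternatives were other scalings, no filter, DESeq2 1.42.0, limma-voom (limma 3.58.1), a block for the replicate number, and each library left out in turn.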

Additional observations from a re-analysis of the deposited data

Results flagged for a closer look

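Among 12 groups of libraries checked for the members, their ratio and Egr1, 1 library stood far from the rest in 2, against about 0.6 expected by chance. Ptgs2 had 409 counts in let-7c-5p replicate 4, with 219 to 255 in replicates 1, 2, 3 and 5. After TMM scaling that library, at 6546 CPM, was no longer set apart from the others (4062 to 5551), and its Ptgs2 to Ptgs1 ratio was not either. Without it the log2 fold change of Ptgs2 was -2.03. Egr1 had 1048 counts in let-7c-5p replicate 5, with 759 to 819 in replicates 1 to 4.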

How the results depend on the processing

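The sizes depend on scaling and the directions did not under any setting run. For Ptgs1 (1.12) column totals gave 0.85 and column totals without Gm10123, Gm6061 and Rpl17 gave 1.57; for Ptgs2 (-1.95) they gave -2.31 and -1.54, and DESeq2 gave -2.20 with a median shift of -0.24 over the tested genes. Leaving out each library gave 0.92 to 1.26 for Ptgs1, -2.12 to -1.76 for Ptgs2 and -3.23 to -3.01 for the difference of the log2 ratio (-3.10), which was -3.13 from group sums and -3.30 from medians. The table's 148 calls (76 higher, 72 lower) became 311 without a filter (170 and 141) and 237 with DESeq2 (141 lower). Both tested 311 genes in place of 149; DESeq2 also changed the test and the scaling, and the cause of its count was not tested. Column totals left 30 higher, 29.4% of the calls in place of 51.4%; column totals without the 3 genes gave 61.1% and DESeq2 40.5%. Leaving out each library gave 131 to 164 calls. Of the 5 genes most like each member, 1 for Ptgs1 and 2 for Ptgs2 kept their place on unscaled ranks. Same-numbered libraries did not deviate together (correlations -0.23 to 0.03), and whether they were prepared together was not tested. The replicate block gave 1.21 for Ptgs1, -2.02 for Ptgs2, 144 calls, and -3.23 for the ratio over replicates 1 to 4. The mean share of Ptgs2 without each library, chosen after seeing the data, was 14.2% to 16.3% with let-7c-5p and 59.4% to 62.9% in the control. Kept signs are little evidence, as the genes were selected on these libraries.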
